A study of Mus musculus with 3 samples.

Results

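Cyclins and cyclin-dependent kinases (CDKs) outside the CDK4/6 and cyclin D group were followed in the open chromatin of BCR-ABL(p185)-transformed mouse pre/pro-B cells with wildtype or kinase-inactive CDK6. The members were the protein-coding genes with a symbol of *Cdk* and a number, or *Ccn*, a letter and a number, without *Cdk4*, *Cdk6*, *Ccnd1*, *Ccnd2* and *Ccnd3*. This gave 30 of 21938 protein-coding genes. By their known roles, 7 were cell-cycle genes, 10 transcriptional, 6 tissue-restricted and 7 other. *Ccnb1ip1*, a ubiquitin ligase of meiosis that interacts with cyclin B1, is no cyclin and entered through its symbol.

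Most CDKs are active only when bound to a cyclin, and the cyclins that drive the cell cycle rise and fall through it. Cyclin E with CDK2 drives entry into S phase, cyclin A with CDK2 and CDK1 takes cells through S and G2 phase, and cyclin B with CDK1 starts mitosis. In the textbook order, CDK4 and CDK6 act before these kinases and release E2F factors from the retinoblastoma protein. E2F sites, CCAAT boxes bound by NFY and the CHR element mark many cell-cycle promoters. Another branch of the family phosphorylates RNA polymerase II. CDK7 acts at initiation, CDK9 with cyclin T at the release of paused polymerase, CDK12 and CDK13 during elongation, and CDK8 and CDK19 belong to the Mediator kinase module.

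ATAC-seq, which reads out accessible DNA through the cuts of a transposase, had been run on 4 cell lines. They arose from C57BL/6 bone marrow infected with a retrovirus that carries BCR-ABL(p185). The oncogene is thus shared by every line. Mice were *Cdk6*+/+ (WT) or carried the K43M allele, which abolishes kinase activity, on both copies (*Cdk6* KM/KM, here K43M). Each genotype had 2 lines with 1 library each, untreated in culture, and neither the age of the donors nor whether the lines came from separate mice was given in the sources used here. All p-values thus measure the spread between these lines. The lists are called WT unnumbered, WT replicate 2, K43M replicate 1 and K43M replicate 2, and values below follow this order unless another is given. WT unnumbered has no labelled sample of its own and was placed in its group from the series' design text. It is an older library that had been deposited before and was analysed again for this study. Any batch that came with it lies in the WT group alone and cannot be told apart from that line, and every K43M minus WT value rests on it.

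The 4 lists held between 33038 and 39038 peaks, and their genome-wide background, recovered from the deposited values, fell from 65.3 read ends per 10 kb in WT unnumbered to 48.4 in K43M replicate 2. Of 8 B-lineage markers, 6 had a promoter peak in every list, and *Cd79b* and *Rag1* lacked one in K43M replicate 2 only. No promoter of 4 T-cell, 4 myeloid and 4 erythroid markers had a peak in any list, and of 4 genes specific to tissues outside blood *Gfap* had one in WT replicate 2 only. A point substitution leaves no mark in a peak list, so the genotype could not be checked from these data. A peak can be low because fewer cells have the site open or because it is less accessible in each cell, and bulk lists cannot tell these apart.

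Promoters of members that the results turn on are shown from 200 bp before to 30 bp after the start of the principal transcript, 5′ to 3′ on the strand of the gene, from the GRCm38 sequence of RefSeq. Capitals mark matches to the CHR element (TTTGAA), the CCAAT box (CCAAT) and E2F sites (TTTCCCGC, TTTCGCGC, TTTGCCGC or TTTGGCGC) on either strand. The 5 cell-cycle promoters differ in their matches to these exact letters. The *Ccng2* promoter has CHR and CCAAT matches in a gene of another role. The windows lie at chr10:69352909-69353138 for *Cdk1*, chr13:100786541-100786770 for *Ccnb1*, chr9:70421518-70421747 for *Ccnb2*, chr3:36572121-36572350 for *Ccna2* and chr10:128704974-128705203 for *Cdk2*, all on the minus strand, and at chr5:93267057-93267286 on the plus strand for *Ccng2*.
Cdk1: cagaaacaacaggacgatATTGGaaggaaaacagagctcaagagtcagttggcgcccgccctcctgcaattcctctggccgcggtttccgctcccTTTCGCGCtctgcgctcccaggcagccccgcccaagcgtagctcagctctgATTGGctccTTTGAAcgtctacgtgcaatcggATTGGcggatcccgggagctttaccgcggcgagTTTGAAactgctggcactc
Ccnb1: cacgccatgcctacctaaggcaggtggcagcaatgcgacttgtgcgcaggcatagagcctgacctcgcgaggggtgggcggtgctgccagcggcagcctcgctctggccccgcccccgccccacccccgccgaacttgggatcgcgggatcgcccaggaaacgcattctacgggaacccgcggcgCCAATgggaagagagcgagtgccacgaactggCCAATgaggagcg
Ccnb2: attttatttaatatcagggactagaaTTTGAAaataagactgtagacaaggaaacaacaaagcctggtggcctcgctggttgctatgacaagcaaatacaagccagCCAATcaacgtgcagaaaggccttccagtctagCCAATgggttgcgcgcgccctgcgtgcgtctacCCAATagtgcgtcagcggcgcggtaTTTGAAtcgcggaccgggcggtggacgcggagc
Ccna2: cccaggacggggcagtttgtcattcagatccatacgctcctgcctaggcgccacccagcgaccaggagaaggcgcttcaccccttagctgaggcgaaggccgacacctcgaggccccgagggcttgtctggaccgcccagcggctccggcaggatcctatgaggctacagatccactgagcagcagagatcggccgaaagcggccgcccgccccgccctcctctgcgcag
Cdk2: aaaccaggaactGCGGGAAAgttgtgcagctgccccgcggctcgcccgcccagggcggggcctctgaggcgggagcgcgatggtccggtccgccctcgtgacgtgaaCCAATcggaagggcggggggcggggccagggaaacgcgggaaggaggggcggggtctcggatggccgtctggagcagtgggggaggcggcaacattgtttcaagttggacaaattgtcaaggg
Ccng2: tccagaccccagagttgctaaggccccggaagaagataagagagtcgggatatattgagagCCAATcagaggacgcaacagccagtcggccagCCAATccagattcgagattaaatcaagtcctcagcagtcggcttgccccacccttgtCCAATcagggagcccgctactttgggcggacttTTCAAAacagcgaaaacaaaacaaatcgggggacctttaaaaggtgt

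The promoter window ran from 2000 bp before to 200 bp after any annotated start of a gene. Promoter peaks were found in all 4 lists for 25 of the 30 members (83.3%), against 47.6% of all protein-coding genes. All 7 cell-cycle members (*Cdk1*, *Cdk2*, *Ccna2*, *Ccnb1*, *Ccnb2*, *Ccne1*, *Ccne2*) and all 10 transcriptional members (*Cdk7*, *Cdk8*, *Cdk9*, *Cdk12*, *Cdk13*, *Cdk19*, *Ccnt1*, *Ccnt2*, *Ccnl1*, *Ccnl2*) were among them. So were *Ccng1*, *Ccng2*, *Cdk5*, *Cdk10*, *Cdk16* and *Cdk17* of the other members, and *Ccnb1ip1* and *Cdk18* of the tissue-restricted ones. *Ccna1*, the testis cyclin A, *Ccnb3*, a cyclin of meiosis, *Cdk15* and *Cdk20*, a kinase linked to cilia, had no promoter peak in any list (13.3% of members, against 43.4% of all genes). *Cdk14*, a membrane-tethered kinase of Wnt signalling, had one in 3 lists. No member had a promoter peak in both WT lists and in neither K43M list, a pattern of 0.515% of all genes, or the reverse, a pattern of 2.00%.

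**Figure D1:**
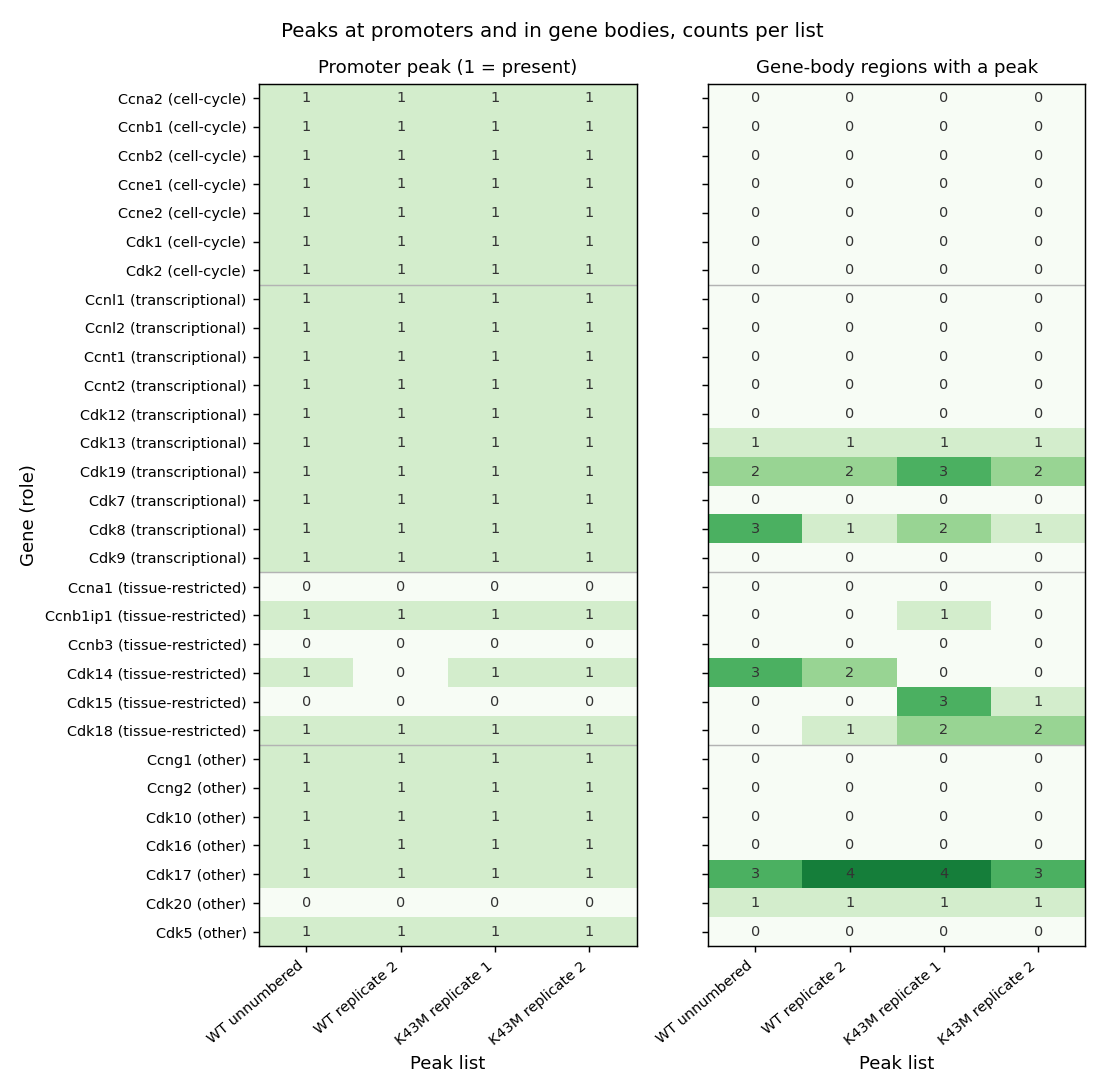
Number of peaks by gene (rows, with role) and list (columns), at the promoter on the left (1 present, 0 absent) and as regions in the gene body outside promoter windows on the right. The 7 cell-cycle genes have a promoter peak in all 4 lists and no gene-body region. The gene-body counts of *Cdk14*, *Cdk15* and *Cdk18* do not overlap between the WT and K43M lists. Of the 3 *Cdk15* regions, 2 have a peak in K43M replicate 1 only, the list with the most peaks.

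Cell-cycle members were compared through the fold enrichment at the summit of the peak, the authors' ratio of reads to the local background of the same library. Where a list had several peaks in a region the highest was taken, and the region with the highest mean stood for the gene and is called its leading region. In the leading regions of the 7 cell-cycle genes fold enrichment lay between 7.68 and 15.9, and none ranked below percentile 78.2 of its list by -log10 q. *Ccne2* had a second, weak promoter peak of 2.76-fold in WT replicate 2 only. The median over the 7 genes was 11.2, 12.2, 12.0 and 11.9, against 10.0, 10.0, 10.3 and 9.80 over the leading regions of all protein-coding genes.

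*Cdk1*, the mitotic kinase, had 11.2-fold and 12.2-fold enrichment in the WT lists and 11.7-fold and 11.9-fold in the K43M lists. The K43M values lay between the WT values. The difference on the log2 scale, K43M minus WT, was 0.02 (SE 0.13) with an adjusted p of 0.9749 in limma, and its 95% interval ran from -0.26 to 0.29. The summits rested on 73, 69, 75 and 61 read ends, with exact 95% Poisson intervals of 57.2 to 91.8 in the first and 46.7 to 78.4 in the last, which cover counting error only.

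*Ccnb1*, which encodes the main mitotic cyclin, had 13.4-fold, 13.6-fold, 13.9-fold and 14.1-fold enrichment. Both K43M lists were above both WT lists, by little, and the log2 difference was 0.06 (SE 0.11; adjusted p in limma 0.886). *Ccnb2*, a second mitotic cyclin, had 15.6-fold, 13.1-fold, 15.1-fold and 14.4-fold. Here the 2 WT lists were the highest and the lowest, and the log2 difference was 0.05 (SE 0.11).

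*Ccna2*, the S- and G2-phase cyclin, stood at 13.5-fold and 13.7-fold in WT and at 12.8-fold and 15.9-fold in K43M. The K43M lines lay on either side of the WT lines, and K43M replicate 2 gave the highest value of any cell-cycle member. *Cdk2*, the kinase of S phase, had 11.01-fold, 12.1-fold, 12.0-fold and 11.8-fold, again with overlapping genotypes. The region of *Cdk2* also holds a start of *Pmel*, so its signal belongs to both genes.

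The cyclins of the G1/S transition had the lowest fold enrichment of the group. By read ends at the summit the order was another. *Ccnb2* had 65, 51, 57 and 47, against 75, 70, 76 and 56 for *Ccne1* and 62, 77, 71 and 61 for *Ccne2*. *Ccne1* had 10.3-fold, 10.7-fold, 10.6-fold and 10.9-fold enrichment. *Ccne2* had 7.68-fold, 9.56-fold, 8.49-fold and 8.91-fold, and its WT lists were the lowest and the highest. Differences of these 4 genes (*Ccna2*, *Cdk2*, *Ccne1* and *Ccne2*) were 0.07, 0.04, 0.04 and 0.02 on the log2 scale, with SEs between 0.12 and 0.18. For the cell-cycle group as a whole, differences ran from 0.02 to 0.07 with a median of 0.04, and the widest 95% interval, that of *Ccne2*, ran from -0.36 to 0.41.

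**Figure D2:**
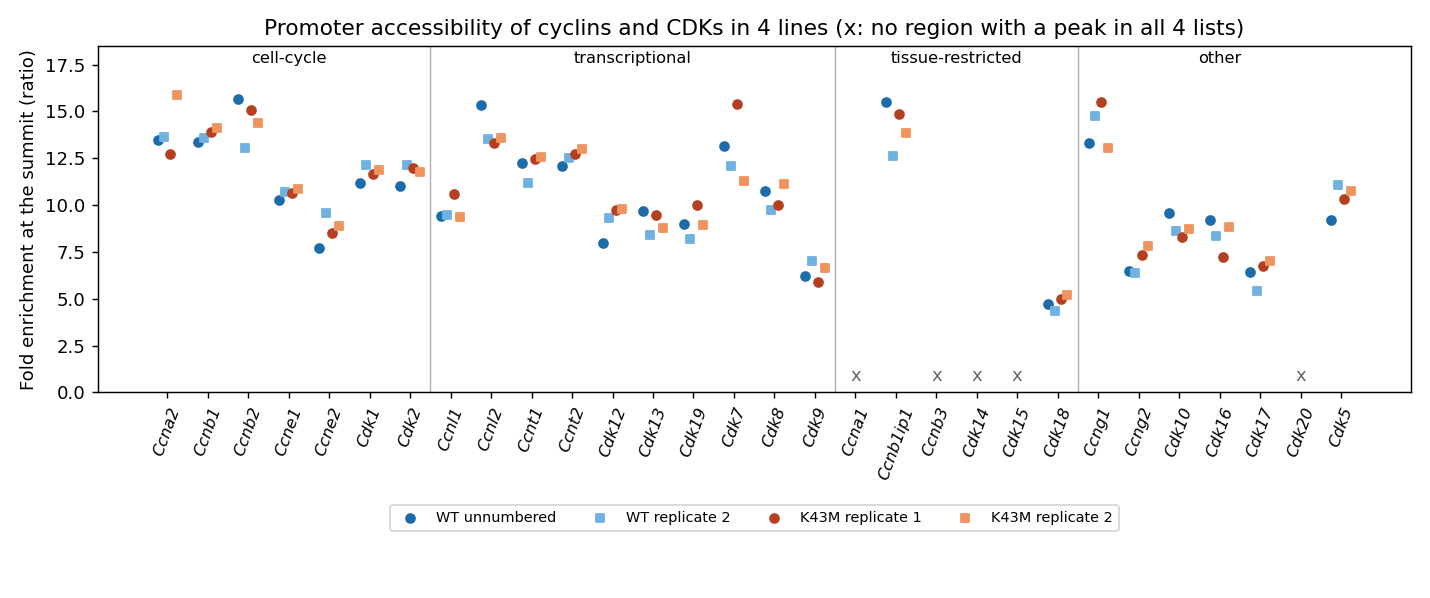
Fold enrichment at the summit (ratio to the local background) in the leading promoter region of each member by list, in 4 role groups. Blue symbols are WT and red or orange symbols K43M lines, 1 point per list, and an x marks genes without a promoter region that has a peak in all 4 lists. Cell-cycle genes lie between 7.68 and 15.9, and the genotypes overlap in 18 of the 25 genes shown.

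Transcriptional members spanned a wider range, from 5.89 to 15.4, with medians of 10.2, 9.59, 10.3 and 10.5. *Ccnt1* and *Ccnt2*, the cyclins of CDK9, were among the strongest by rank, at median percentiles of 99.3 and 99.2 over the 4 lists. *Ccnt1* had 12.2-fold, 11.2-fold, 12.4-fold and 12.6-fold enrichment, with both K43M lists just above WT and a log2 difference of 0.10 (SE 0.12; adjusted p in limma 0.810). Its open region lay 2565 bp from the start of its principal transcript, at another annotated start.

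*Cdk9* itself was the weakest transcriptional member, at 6.21-fold, 7.03-fold, 5.89-fold and 6.65-fold. Its log2 difference was -0.08 (SE 0.21) and the genotypes overlapped. *Cdk7*, the kinase of TFIIH, had 13.1-fold, 12.1-fold, 15.4-fold and 11.3-fold, so that its K43M lines were the highest and the lowest. *Ccnl2*, a cyclin linked to splicing, had 15.3-fold, 13.6-fold, 13.3-fold and 13.6-fold, the difference of -0.10 (SE 0.11) being among the 3 lowest of the members.

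Elongation kinases and the Mediator kinases showed the same order of size. *Cdk12* had 7.96-fold, 9.31-fold, 9.73-fold and 9.78-fold. Both K43M lists were above WT, and the difference of 0.18 (SE 0.16; adjusted p in limma 0.712) was the third largest of the members. *Cdk13*, *Cdk8* and *Cdk19* had means of 9.03, 10.2 and 8.58 in WT and of 9.11, 10.6 and 9.46 in K43M, with overlapping genotypes in each. *Ccnt2* and *Ccnl1* differed by 0.07 and 0.08 on the log2 scale.

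The other members held the largest and the smallest differences. *Ccng2*, an atypical cyclin linked to cell-cycle exit, had 6.46-fold and 6.39-fold in WT and 7.31-fold and 7.82-fold in K43M. The genotypes did not overlap, and the difference of 0.24 (SE 0.20) had an adjusted p of 0.690 in limma, with a 95% interval from -0.19 to 0.66. *Cdk17* had 6.44-fold, 5.42-fold, 6.77-fold and 7.03-fold and a difference of 0.23 (SE 0.21), again with both K43M lists above WT. At the other end *Cdk16*, a kinase of the same PCTAIRE subfamily as *Cdk17*, had 9.23-fold, 8.37-fold, 7.25-fold and 8.84-fold, and *Cdk10* had 9.57-fold, 8.60-fold, 8.29-fold and 8.74-fold. Their differences were -0.13 (SE 0.19) and -0.09 (SE 0.17), and the genotypes overlapped in both. The leading region of *Cdk16* lay 305 bp from its principal start. The neighbouring region that holds this start had 5.51-fold, 7.24-fold, 7.25-fold and 6.83-fold enrichment, and its difference had the other sign, 0.16 (SE 0.21).

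*Ccng1*, a target of p53, was high in every list, between 13.03-fold and 15.5-fold. *Cdk5*, best known from neurons, had 9.20-fold to 11.1-fold enrichment in a region shared with the start of *Slc4a2*. A second region of *Cdk5* at -1672 bp from its nearest start had 5.42-fold, 3.64-fold, 5.12-fold and 6.82-fold. Its difference of 0.41 (SE 0.25; adjusted p in limma 0.552) was the largest of the 28 member promoter regions tested, and K43M replicate 1 lay between the WT lines.

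Over all 28 member promoter regions with a peak in all 4 lists, limma called 0 higher and 0 lower in K43M. Over the 20964 regions tested, 0.0620% were called higher and 0.0477% lower. None of the 28 had an unadjusted p under 0.05 in limma, against 12.2% of all regions tested and 7.41% of all protein-coding promoter regions. The lowest adjusted p in limma was 0.552, and quantile scaling or the recovered pileup also gave 0 calls. The pileup, the number of read ends at the summit, gave 3 of the 28 an unadjusted p under 0.05 in limma. The same held for 3910 of the 20964 regions tested and 1471 of the 10134 protein-coding promoter regions. For a single region, an exact permutation test of 2 lists against 2 cannot give a two-sided p below 0.33.

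The median difference of the 28 regions was 0.05 on the log2 scale, and 24 of them lay above 0, against a median of 0.0023 and 50.4% above 0 over all regions tested. With the pileup the median was -0.0031 and 14 of the 28 lay above 0, so the direction depended on the measure. The median was 0.0984 without K43M replicate 1, 0.0247 without K43M replicate 2 and 0.0279 without WT unnumbered. Among the 25 leading regions, both K43M lists lay above both WT lists in 7 (28%, against 21.2% of all regions tested) and below them in 0 (against 20.5%). The 95% intervals differed in width between genes, the narrowest being -0.18 to 0.30 for *Ccnb1* and the widest -0.53 to 0.38 for *Cdk9*. Each of the 25 included 0.

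**Figure D3:**
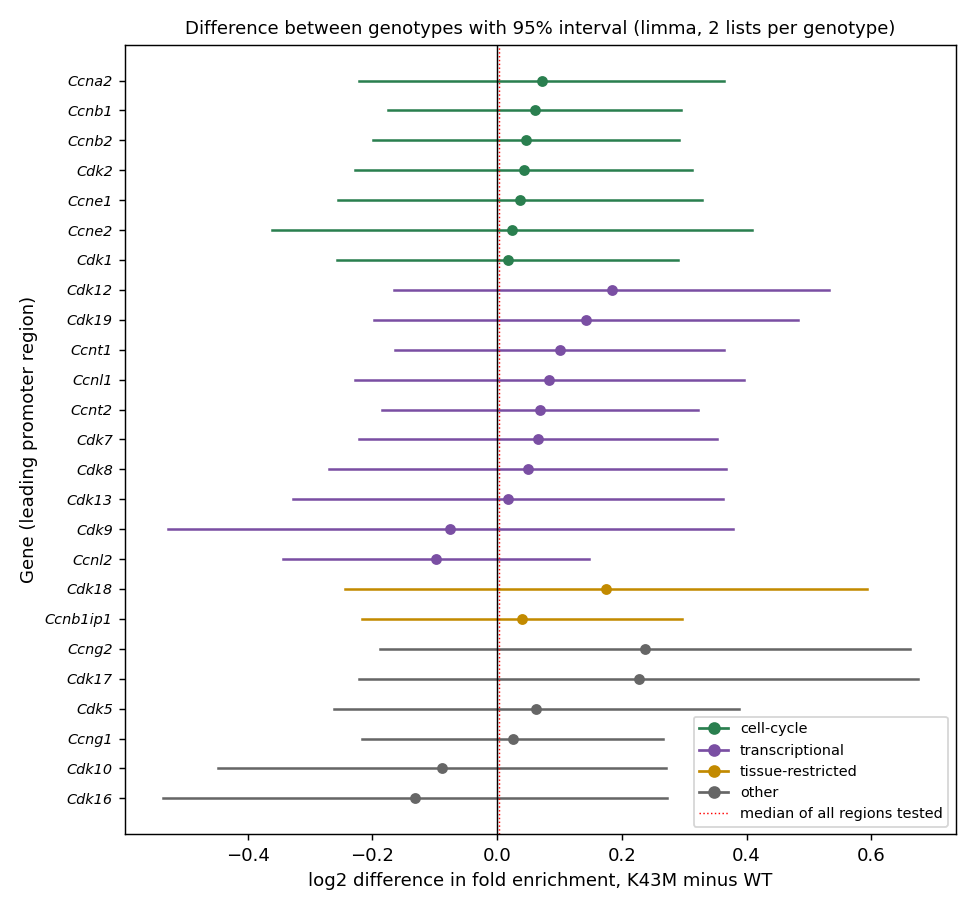
Log2 difference in fold enrichment, K43M minus WT, in the leading promoter region of 25 members. Points are limma estimates from 2 lists per genotype, bars 95% intervals and colours the roles, and every bar crosses 0.

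Chromosome 13 carries *Ccnb1*, *Cdk7*, *Cdk13* and *Cdk20*, and the local background of its open regions was lower in the K43M lines. Relative to the autosomal median it was 0.05 and -0.01 in the WT lists and -0.43 and -0.50 in the K43M lists on the log2 scale. At *Cdk13* the pileup was 93 and 76 in WT and 54 and 57 in K43M, and the background was 436 and 409 against 241 and 281 read ends per 10 kb. The pileup of *Cdk13* differed by -0.49 on the log2 scale (adjusted p in limma 0.085), whereas its fold enrichment differed by 0.02. *Ccnb1* and *Cdk7* differed by -0.18 and 0.09 in pileup, and the median over 813 open regions of the chromosome was -0.31. The part of the chromosome's background in these pileups was not tested.

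**Figure D4:**
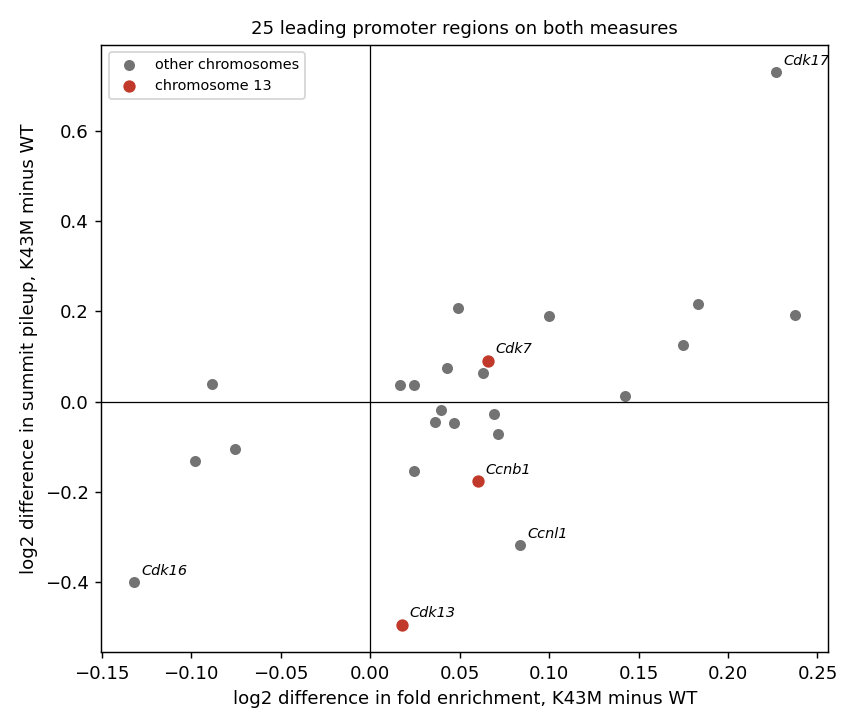
Log2 difference K43M minus WT in fold enrichment (x axis) and in summit pileup (y axis) for 25 leading promoter regions, 1 point per gene. Red points are on chromosome 13, and *Cdk13* lies near 0 on the x axis and at -0.49 on the y axis.

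Among the role groups, the tissue-restricted one had the lowest share of genes with promoter peaks in all 4 lists. It was 2 of 6 (33.3%, against 47.6% of all protein-coding genes). Roles were chosen with earlier results of these data known, so this order of groups is a description only. *Ccnb1ip1* had 15.5-fold, 12.6-fold, 14.8-fold and 13.8-fold enrichment, but in a region at the start of *Parp2*, a DNA repair gene, and 11543 bp from the start of its own principal transcript. *Cdk18* had 4.71-fold, 4.33-fold, 5-fold and 5.17-fold, with the K43M lists above WT, in a region 22700 bp from its principal start that ranked no higher than percentile 23.1 in any list. With the starts of basic protein-coding transcripts alone, 0 of the 6 tissue-restricted genes had a promoter peak in all 4 lists, and the count of members fell from 25 to 23.

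The peaks of *Cdk14* were not at a common place. WT unnumbered had a 6.07-fold peak centred at -370 bp from an internal start, at chr5:5266542-5266805. Both K43M lists had a weak peak, 4.63-fold and 5.59-fold, at another annotated start, at chr5:5419923-5420406, where neither WT list had one. The start of the principal transcript lay in no peak. Without WT unnumbered, *Cdk14* counted as open at its promoter in the K43M lines only. Without WT replicate 2 it counted as open in all remaining lists, so its state depended on which WT list was kept.

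For the 4 genes with no promoter peak, the nearest peak to any start was far off in most cases. It lay between 24655 and 56387 bp away for *Ccna1*, between 108295 and 127198 bp for *Ccnb3* and between 17132 and 19365 bp for *Cdk15*. *Cdk20* was the exception, with a peak in an exon of the gene 2140 to 2221 bp from a start in every list, at chr13:64439034-64439431. That peak had 6.62-fold, 5.70-fold, 6.19-fold and 7.33-fold enrichment. K43M replicate 1 lay between the WT lists and K43M replicate 2 above them.

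Gene bodies outside the promoter windows held 23 regions in 9 members, and 19 of the 23 lay in the 8 members longer than 50 kb. None lay in a cell-cycle gene. *Cdk17* held 5, of which an intronic region at -8524 bp from the nearest start had the highest fold enrichment of these regions, with 13.04-fold, 13.9-fold, 13.3-fold and 13.6-fold enrichment and a log2 difference of -0.0017 (SE 0.11). *Cdk19* held 4, and its region at chr10:40476865-40477442, in an exon, had 10.6-fold, 10.2-fold and 9.30-fold in the first 3 lists and 4.96-fold in K43M replicate 2. The K43M lines were thus below WT, with a difference of -0.61 (SE 0.23) that had an adjusted p of 0.309 in limma, and K43M replicate 1 was close to the WT lines. *Cdk8* held 3, and an exonic one at chr5:146298690-146299812 had 9.51-fold, 6.35-fold, 10.7-fold and 8.52-fold.

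A region was called strictly genotype-only when both lists of a genotype had a peak there and neither list of the other did. Members had 2 strictly WT-only regions among 57 (3.51%, against 3.59% of all regions at protein-coding genes) and 4 strictly K43M-only regions (7.02%, against 7.91%). Both shares are near those of all genes. Without either of the WT lists the WT-only count was 6, and without K43M replicate 2 the K43M-only count was 7. In these settings a peak in the remaining list of that genotype was enough, which by itself can raise the count. The share of all regions was not counted for them. Both WT-only regions lay in introns of *Cdk14*. The region at chr5:5004604-5005152 had 12.0-fold and 10.4-fold enrichment and pileups of 27 and 23 read ends in the WT lists, and the one at chr5:4962003-4962302 had 4.34-fold and 7.496-fold and pileups of 9 and 15.

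The 4 K43M-only regions were weak. Besides that of *Cdk14* given above, they were an intronic region of *Cdk15* at chr1:59322424-59322813 with 4.76-fold and 6.10-fold enrichment, an exonic region of *Cdk18* at chr1:132121246-132121679 with 6.25-fold and 3.79-fold, and an intronic region of *Cdk19* at chr10:40461916-40462634 with 6.48-fold and 4.95-fold. Their pileups lay between 9 and 15 read ends. With peaks of -log10 q of at least 5 alone, none of these 4 regions remained. The weaker WT-only region of *Cdk14* was lost too, with a -log10 q of 3.58 in WT unnumbered, and a region of *Cdk13* became WT-only. *Cdk13* lies on chromosome 13, whose local background was lower in the K43M lists. The part of this background in the change was not tested. With all lists shortened to an equal number of peaks, the K43M-only region of *Cdk19* remained and the other 3 did not.

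The 100 bp on either side of the summit of the strongest genotype-only region of *Cdk14* (chr5:5004855-5005055, minus strand) and of the *Cdk19* region (chr10:40462380-40462580, plus strand) are shown, the first as the strongest of the genotype-only regions and the second as the only K43M-only region that remained with lists of equal length. Capitals mark a match to the CHR letters on the other strand, and none of the searched motifs was found in the *Cdk14* window.
Cdk14: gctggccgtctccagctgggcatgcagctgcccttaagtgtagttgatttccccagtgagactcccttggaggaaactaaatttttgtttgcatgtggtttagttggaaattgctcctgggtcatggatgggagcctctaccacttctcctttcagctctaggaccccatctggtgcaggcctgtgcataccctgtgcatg
Cdk19: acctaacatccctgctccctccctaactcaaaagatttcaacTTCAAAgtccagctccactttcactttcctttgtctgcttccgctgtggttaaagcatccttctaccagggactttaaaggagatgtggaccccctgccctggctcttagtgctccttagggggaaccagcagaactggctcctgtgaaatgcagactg

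The motif content of member promoters was read from 250 bp before to 50 bp after the principal start, on both strands, and every match was counted also where matches overlapped. Beside the letters given above, GGGCGG (SP1), CCGGAAGT (ETS) and GCGCATGCG (NRF-1) were searched. *Cdk1* and *Ccnb2* each had 2 CHR matches and 3 CCAAT boxes, and *Cdk1* had an E2F match from -105 to -98. *Ccnb1* had CCAAT boxes at -15 and 18, *Cdk2* an E2F match at -188 and a CCAAT box at -93, and *Ccne2* a CCAAT box at -60. Of the letters searched, *Ccna2* and *Ccne1* had matches to SP1 only.

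By group, CHR letters were in 2 of 7 cell-cycle promoters, 0 of 10 transcriptional promoters and 15.6% of all protein-coding promoters. CCAAT was in 5 of 7 cell-cycle promoters, 3 of 10 transcriptional promoters and 38.6% of all, and at least 2 CCAAT boxes in 3 of 7, 1 of 10 and 12.3%. E2F letters were in 2 of 7, 0 of 10 and 2.88%. SP1 letters were in 7 of 7, 8 of 10 and 45.4%, or 65.3% of the promoters with a peak in all 4 lists. Outside the cell-cycle group *Ccng2* alone held CHR letters, at -17, together with 3 CCAAT boxes in the sequence printed above, and ETS letters were in *Cdk7*, *Cdk9* and *Cdk10*. NRF-1 letters were in *Ccnb1ip1* and *Cdk16*, 2 of 30 members (6.67%). They were in 2.50% of all protein-coding promoters and 3.94% of those with a peak in all 4 lists. A match is a stretch of letters and not a bound site. Other spellings of these elements were not searched, so the lack of a match does not show that an element is absent.

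**Figure D5:**
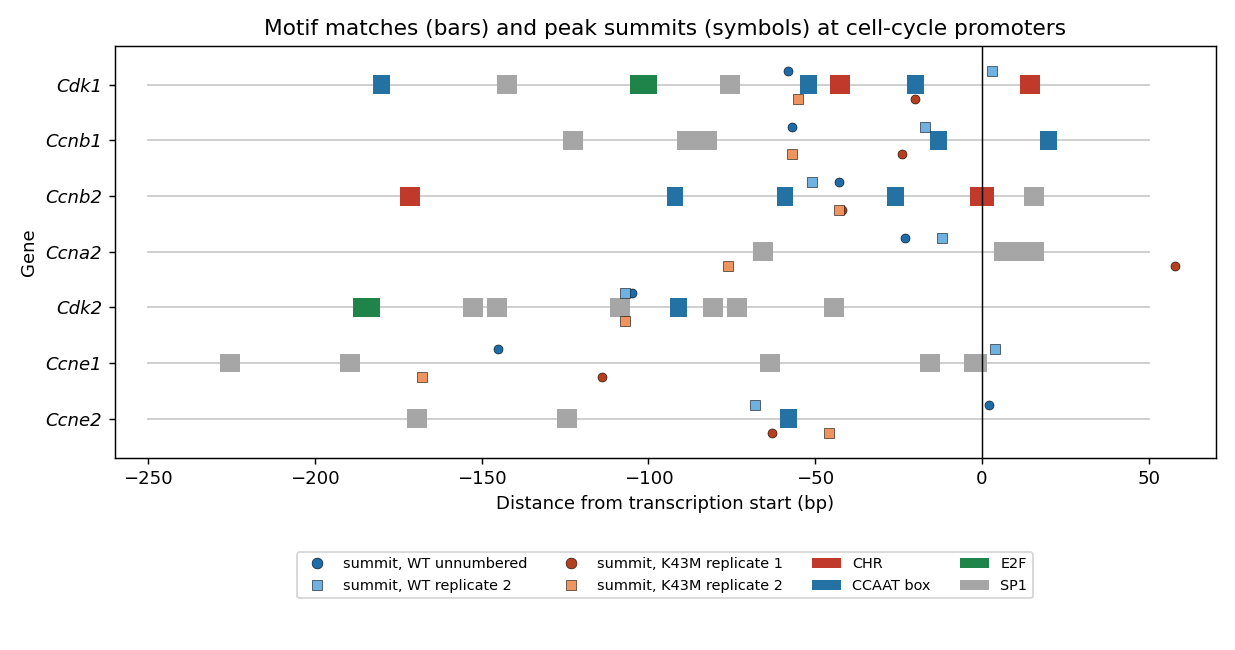
Matches to 4 motifs (coloured bars) and peak summits of the 4 lists (symbols) against the distance from the principal start in bp, for the 7 cell-cycle promoters. The summits lie between -168 and 58, and those of *Cdk2* fall within 2 bp of each other so that their symbols overlap.

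Summits of *Cdk2* were at -105, -107, -107 and -107, and those of *Ccnb2* at -43, -51, -42 and -43, between its CCAAT boxes. The summits of *Cdk1* were at -58, 3, -20 and -55 and those of *Ccnb1* at -57, -17, -24 and -57. *Ccne1* was the most variable of the group, with summits at -145, 4, -114 and -168. Its WT summits alone were at both sides of the start, so positions differed between lines of a genotype.

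Member promoters were rich in G and C, with a median of 63.2% against 56.0% over all protein-coding promoters and 60.7% over those with a peak in all 4 lists. The ratio of observed to expected CpG was 0.853, against 0.557 and 0.784. A CpG-rich principal promoter did not go with a peak in every case. *Ccna1* had 74.0% G and C and a CpG ratio of 0.852, and *Cdk14* had 79.3% and 1.12, without a peak at the principal start.

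Other genes of the pathway were mostly open in all lines. Of 11 genes made up of *Cdk11b* and the cyclins with a letter but no number in their symbol, 10 had a promoter peak in all 4 lists. That is 90.9%, against 47.6% of all protein-coding genes. *Ccnjl* had one in both K43M lists only, at 6.54-fold and 7.97-fold, a pattern of 2.00% of all protein-coding genes. Of 18 partners and regulators, 17 had a peak in all 4 lists (94.4%, against the same 47.6%). *Cdk5r2*, an activator of CDK5 in neurons, had one in both K43M lists only, at 12.9-fold and 14.9-fold. Differences of the 10 and 17 tested genes ran from -0.12 to 0.21 and from -0.37 to 0.23 on the log2 scale. Limma called 0 of each, against 0.0620% of all regions tested called higher in K43M and 0.0477% lower. The lowest adjusted p in limma was 0.412, for the lowest difference, that of the phosphatase gene *Cdc25b*.

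*Cdk4*, *Cdk6* and the D-type cyclins, left out of the members, had promoter peaks in all 4 lists too, as did 47.6% of all protein-coding genes. Their fold enrichment was lower, with a median of 5.33, 5, 5.18 and 4.56 against 10.3, 10.7, 10.6 and 10.9 over the members. The median pileup was closer, at 64, 65, 64 and 48 against 75, 71, 75 and 57, so the size of the contrast depended on the measure. Both contrasts were given as a description and were not tested. Their log2 differences lay between -0.19 and 0.17, and limma called 0 of 5.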

How the data were processed

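Per the labels and the study's methods, ATAC-seq reads were trimmed by the authors with Trimmomatic 0.36 and aligned to mm10 with bwa-mem 0.7.15. Blacklisted and multimapping reads were removed, and peaks were called per library with MACS2 2.1.0, without pooling. The deposited lists give the fold enrichment at the summit as a ratio to the local background, with a −log10 p-value and a −log10 q-value. No read counts were used here, but the pileup and background at each summit were recovered from the deposited fold and −log10 p-value, for 100% of peaks to a tolerance of 0.02.

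Genes and starts came from GENCODE release 21 of the mouse (same build, later release than the authors used) and sequences from RefSeq. Peaks of the 4 lists that overlapped by 1 bp were merged into 50867 regions. Log2 fold enrichment, centred on the median of each list, was compared over 20964 regions that held a peak of every list by limma 3.58.1 (trend, R 4.3.3) with Benjamini-Hochberg adjustment at 0.05, in a model with genotype only. The fit was run on simulated data whose planted differences were larger than any of the members, so it gave no measure of power for small ones. Python 3.11.15, pandas 2.3.3, scipy 1.17.1 and pysam 0.24.0 were used for the rest. Members, gene lists, roles and motifs were chosen with earlier results of these data known. Values in every list are given for the 7 cell-cycle genes, *Cdk7*, *Cdk9*, *Ccnt1*, *Cdk14* and the 3 genes with the largest and the 3 with the smallest difference, and other genes named with values were chosen after these were seen. Alternatives changed the window, transcripts, overlap, peak threshold, number of peaks, measure, scaling and filter, added the replicate number as a block and left out each list in turn.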

Additional observations from a re-analysis of the deposited data

How the results depend on the processing

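The count of members with a promoter peak in all 4 lists lay between 23 and 26 over 9 alternatives. No alternative gave a member with a promoter peak in the WT lists only. Without WT unnumbered, 1 member (*Cdk14*) had one in the K43M lists only, and leaving out lists gave 0 to 1. Strictly WT-only regions numbered 2 to 6 when a list was left out, and strictly K43M-only regions 4 to 7. Where the list left out was of the same genotype, a peak in its remaining list was enough, which by itself can raise the count. At a −log10 q of at least 5 the WT-only count was still 2, but with a region of *Cdk13* in place of one of *Cdk14*. *Cdk13* lies on chromosome 13, whose local background was lower in the K43M lists. With a −log10 q of at least 5 the K43M-only count was 0, and with every list shortened to its best 32966 peaks there was 1 (*Cdk19*).

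No member promoter region was called under any of 12 alternatives. The removal of chromosome 13 and the replicate block were added after seeing the data. Calls over all regions did vary, from 23 as reported to 0 without scaling, 10 with quantile normalization, 31 with a peak in at least 3 lists, 39 with the stricter peak threshold and 892 with the pileup. They were 364 without WT unnumbered, 437 without WT replicate 2 and 0 without either K43M list, where the remaining list was assumed to vary like the others. The cause was not tested. The median member difference ran from -0.00315 with the pileup to 0.0984 without K43M replicate 1, and was 0.0493 without chromosome 13. With the replicate number as a block (WT unnumbered taken as the first WT line), 0 member regions and 106 of all regions were called, and the member median was 0.0547. Same-numbered lists deviated from their group means with a correlation of 0.031 over all regions tested and -0.197 over the 28 member promoter regions. Whether same-numbered lines share more than a number was not tested. With 2 lines per genotype and weak peaks of about 9 read ends, the absence of a peak in a list does not show that a site was closed.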
